A study of Mus musculus with 6 samples.

Results

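Small nuclear RNAs (snRNAs) are the short noncoding RNAs at the core of the machinery that removes introns. The small RNA data of mouse heart held 61 genes of this class, which are all the genes that the deposited table classed as snRNA, of 10065 genes in all. They were identified by their Ensembl identifiers and grouped by U type, the named family to which each RNA belongs. The table came from whole hearts of 3 ADAR2-/- mice (Adarb1-/-, Gria2R/R) and 3 wild-type siblings (Adarb1+/+, with the same Gria2 R/R allele in the study's methods), all of strain SV129, female and at postnatal day 6. ADAR2, encoded by Adarb1, converts adenosine to inosine in double-stranded RNA, and both genotypes carried the R/R form of Gria2, a glutamate receptor gene. The loss of ADAR2 was present in the whole animal, so the heart cells were not the only cells that lacked it.

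The value used for each gene was the authors' mean normalized count, a read count scaled for the depth of the library and averaged over all samples of both genotypes. It is 1 pooled value per gene. Values per heart were not analysed here, and the authors' own comparison of the genotypes, which the table also holds, was not used. The difference between genotypes is therefore not reported for these genes, and the pooled mean carries no error of its own and no test. The levels of different genes are set side by side as a description, and it is not known which of their differences exceed the spread between hearts.

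Each spliceosomal snRNA has its own task. U1 pairs with the start of an intron, and U2 pairs with the branch site inside it. U6 arrives paired to U4, is released from it and forms the catalytic core with U2, while a loop of U5 holds the exon ends. U11 and U12 replace U1 and U2 on a rare class of introns, and U7 pairs with histone transcripts to direct the cut at their 3′ end. Most of these RNAs are made by RNA polymerase II and carry a ring of Sm proteins on a short uridine-rich site, whereas U6 is made by RNA polymerase III and carries the related LSm ring. Mammalian genomes also hold many diverged copies of these genes, most of which are regarded as pseudogenes.

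The following sequences are those used as references for U2, U4, U7 and U11 and, for U1, the member with the highest mean. They are given because they show the elements searched in each type, which for U11 was the Sm site alone. They are transcripts of GENCODE M21 on GRCm38, matched by identifier, and are written 5′ to 3′ as DNA. Capitals mark the elements searched. Gm24265 (U4, chr5:115489459-115489599, plus strand) shows the stretch that pairs with U6 and its Sm site. Rnu2-10 (U2, chr11:101658238-101658428, plus strand) shows the branch-site pairing and the Sm site. Gm24036 (closest to U1, chr11:12054148-12054303, minus strand) shows the stretch that pairs with the intron start and the Sm site. It is a diverged copy, identical to the U1 gene Rnu1b2 over 74.5% of the longer sequence. Rnu11 (U11, chr4:132270080-132270213, minus strand) shows its Sm site, and Rnu7 (U7, chr6:124741225-124741286, minus strand) shows the histone-pairing stretch and its own form of the Sm site.
Gm24265: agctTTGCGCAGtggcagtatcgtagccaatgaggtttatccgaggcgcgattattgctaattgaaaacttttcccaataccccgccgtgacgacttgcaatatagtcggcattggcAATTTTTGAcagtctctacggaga
Rnu2-10: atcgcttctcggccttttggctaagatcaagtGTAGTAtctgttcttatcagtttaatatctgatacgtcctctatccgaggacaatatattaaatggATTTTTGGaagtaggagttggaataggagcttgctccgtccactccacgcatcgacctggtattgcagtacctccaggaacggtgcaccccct
Gm24036: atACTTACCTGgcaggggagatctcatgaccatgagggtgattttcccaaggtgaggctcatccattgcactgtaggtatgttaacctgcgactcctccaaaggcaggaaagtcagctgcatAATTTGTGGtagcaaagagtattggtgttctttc
Rnu11: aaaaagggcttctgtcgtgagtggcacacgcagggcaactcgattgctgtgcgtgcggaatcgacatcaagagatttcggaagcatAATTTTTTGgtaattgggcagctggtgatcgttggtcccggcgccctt
Rnu7: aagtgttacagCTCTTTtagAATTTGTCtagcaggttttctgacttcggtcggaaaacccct

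The U4 stretch TTGCGCAG and the U6 stretch CTGCGCAA are reverse complements over 8 bases, which is a part of the pairing that joins both RNAs.

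The 61 snRNA genes summed to a mean normalized count of 1406, which is 0.656% of the sum over all genes (214408). Their median was 8.31, against 6.65 over all genes and 6.77 over 8439 protein-coding genes, whose transcripts are far longer. Per kb of transcript, the median level was 65.4 for the snRNA genes, 84.3 for 134 miRNA genes and 52.7 for 42 snoRNA genes, which are classes of similar length. A mean of at least 10 was reached by 27 snRNA genes (44.3%), against 36.0% of all genes, and 19 had a mean under 5. The class ran from 2.25 for Gm25797 to 552 for Gm23622.

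The names told the type of only 4 members, Rnu5g, Rnu2-10, Rnu7 and Rnu11, and the other 57 carried Gm numbers. Every member was therefore also assigned to the reference snRNA with the largest share of identical bases. The references were of U1, U2, U4, U5, U6, U7, U11 and U12. The minor types U4atac and U6atac had no reference, so no member could be assigned to them. No U4 gene carries a type name in the annotation, so the member Gm24265 served as its reference. By this measure 23 members were closest to U6, 15 to U2, 8 to U1, 7 to U5, 4 to U4, 3 to U11 and 1 to U7. No member was closest to U12. The weakest assignment was Gm22122, identical to U4 over 58.0% of the longer sequence, whose first 61 bases were those of Gm24265.

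U6 genes held 55.8% of the summed mean of the class, U2 genes 23.6%, U5 genes 12.3%, U1 genes 4.04%, U4 genes 2.79%, U11 genes 1.14% and Rnu7 0.273%. The order followed the number of genes only in part. No gene with a U1 or U6 reference sequence had a row, so the U1 and U6 shares come from other copies. All 4 genes of the Rnu2-10 sequence had a row, and each was counted. The shares therefore describe the genes with a row and are not levels of the U RNAs. The share of U6 rested on 1 gene, and without Gm23622 the U6 genes held 27.3% and the U2 genes 38.8%. The mean normalized count was also divided by the annotated transcript length in kb. Whether counts of small RNA libraries rise with that length was not tested, so this scale is a description. On it the median was 121 for U2, 96.6 for U5, 64.4 for U4, 62.1 for U6, 45.8 for U11 and 39.6 for U1, and Rnu7 had 62.0.

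**Figure D1:**
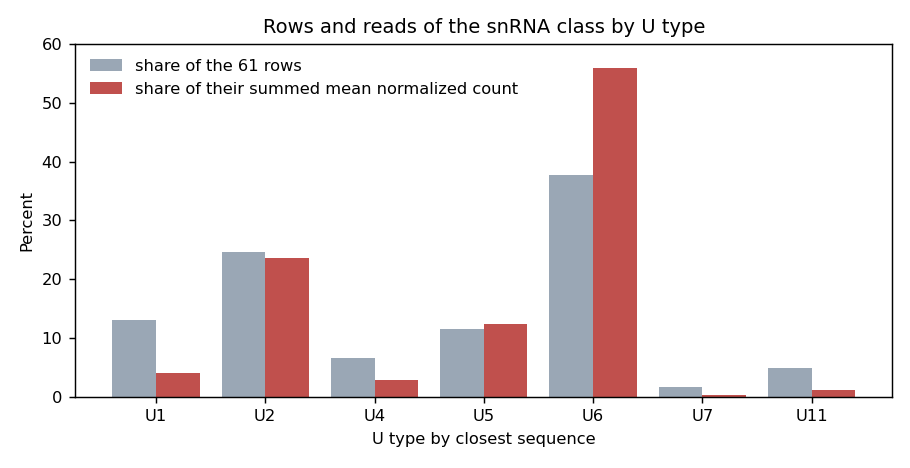
Share (percent) of the 61 snRNA rows (grey bars) and of their summed mean normalized count (red bars) by U type of the closest reference sequence. U6 had 37.7% of the rows and 55.8% of the sum, while U1 had 13.1% of the rows and 4.04% of the sum. No gene with a U1 or U6 reference sequence had a row.

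**Figure D2:**
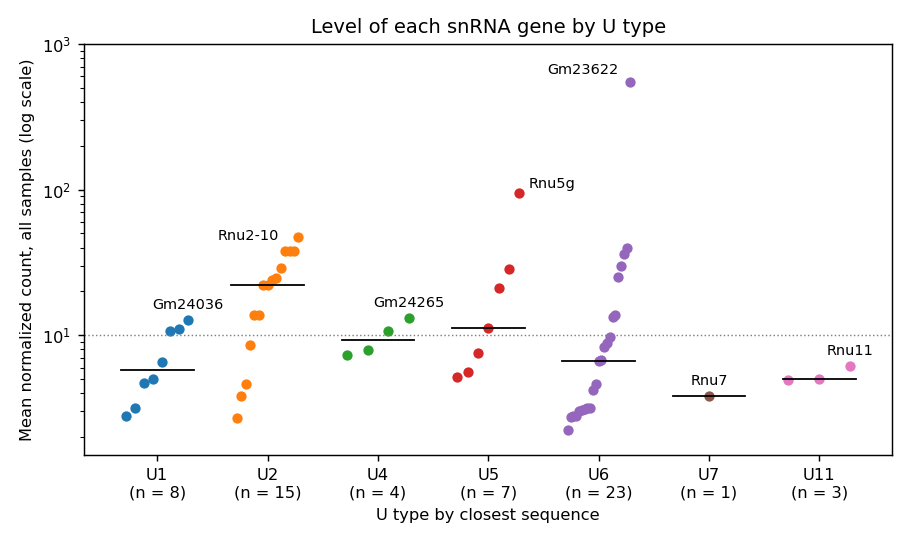
Mean normalized count over all samples (log axis) of each of the 61 snRNA genes by U type. Points are genes, black bars are medians over genes and the dotted line marks 10. Gm23622 at 552 stood above every other gene of the class, followed by Rnu5g at 94.4.

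Gm23622, a U6-type gene on chromosome 14, had the highest mean of the class, 552, or 5160 per kb. It alone made up 39.3% of the class, and 99.5% of all genes in the table had a lower mean. The next U6-type gene by mean, Gm23924, had 39.6, or 367 per kb, and Gm23055 had 382 per kb. Gm23622 was identical to Rnu6, the reference U6 gene, at 89.7% of its bases. Both its ACAGAGA box, which contacts the start of the intron, and its U4-pairing stretch were intact. Gm24456, at 25.0, was identical to Rnu6 at 99.1% of its bases.

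The other U6-type genes with a mean of at least 10 were Gm23055 (35.9), Gm24311 (30.0), Gm26328 (13.8) and Gm24268 (13.4). Their identity to Rnu6 ran from 75.7% of the longer sequence for Gm23055 to 92.5% for Gm24311, so missing length lowers it too. The remaining 16 U6-type genes lay between 2.25 for Gm25797 and 9.67 for Gm24762. The ACAGAGA box was present in 16 of the 23 U6-type genes, against 60.3% of the annotated genes of this type, and the U4-pairing stretch in 10 of 23, against 22.7%. Per kb, genes with the box had a median level of 69.9 and those without it 39.8. The ranges overlapped, from 21.1 to 5160 per kb with the box and from 28.4 to 93.0 per kb without it. Other elements did not all show this order of medians. It was reversed for the Sm sites of U1 (39.6 with, 49.7 without) and U11 (41.6 with, 48.0 without). It was the same for the U4-pairing stretch of U6 (85.3 with, 39.8 without) and the other elements compared in U1, U2 and U4.

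U2-type genes were the second largest group by sum, and 11 of the 15 had a mean of at least 10. Gm26316 was the highest at 47.4, or 248 per kb, and differed from Rnu2-10 by C170T alone (positions count from 1 at the 5′ end, the reference base first). Rnu2-10, Gm24950 and Gm23849 had an identical sequence and an identical mean of 38.2 each. A further gene of that same sequence, Gm23971, had 28.8, and it lies on the opposite strand of the same cluster. These 5 genes fell within 53.6 kb on chromosome 11 (GRCm38, 101604850 to 101658428) and held 57.5% of the U2-type sum. Since short reads from identical genes cannot be told apart, the value of each single gene in this cluster is uncertain.

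A second U2 cluster lay on chromosome 1, where 4 members within 29.0 kb summed to 49.3. Its highest gene, Gm24497, had 24.1 and its lowest, Gm25360, had 2.72, the lowest mean of the type. Gm23472 of this cluster, at 13.8, had the same sequence as Gm23444, at 13.9, and differed from Rnu2-10 by G109C. Gm25813 (24.9), Gm22423 (22.2) and Gm25202 (22.1) completed the U2-type genes above 10. The letters of the Sm site, ATTTTTGG, were chosen after the sequences were seen. They were found in 15 of 15 U2-type members, against 43.5% of annotated genes of the type. The branch-site stretch GTAGTA was found in 13 of 15, against 54.3%. The exceptions were Gm22423 and Gm26020 (3.80). Gm22423 lacked the letters that pair with the branch site and had the median level of the type per kb, 121.

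U5 was the type with the largest part of its annotated genes in the table, 7 of 11. Rnu5g had the highest mean, 94.4, or 813 per kb, second in the class to Gm23622 on either scale. Gm25313 lies beside it on chromosome 9, within 5.27 kb, and had 21.1. Together they held 66.6% of the U5-type sum. Gm25099 had 28.3 and lies on chromosome 4 with Gm23143 (7.58) and Gm23287 (5.58). Gm24871 had 11.2. The lowest was Gm22265 at 5.15. The loop GCCTTTTAC and the Sm site AATTTTTTG were present in 7 of 7 members, against 81.8% and 90.9% of annotated U5 genes. The letters of this Sm site were also chosen after the sequences were seen. Gm25313 was identical to Rnu5g at 97.4% of its bases and Gm25099 at 94.0%, so reads from the stretches they share cannot be told apart.

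U4-type genes formed a narrow group. Gm24265 had 13.2 (93.8 per kb) and its neighbour Gm24407, less than 1 kb away on chromosome 5, had 10.8 with G88A and C99A as its only differences from Gm24265. Gm25131 had 7.90 and Gm22122 had 7.35. The stretch that pairs with U6 was present in 3 of 4, against 27.8% of annotated genes of the type, and Gm25131 lacked it. On the per kb scale the highest U6-type gene, Gm23622, had 5160 against 93.8 for the highest U4-type gene. The medians of the types were close, 62.1 for U6 and 64.4 for U4.

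U1-type genes were low and diverged. Gm24036 had 12.7 (81.4 per kb), Gm25184 had 11.1 and Gm25012 had 10.8, while the other 5 lay between 2.77 for Gm23027 and 6.55 for Gm22738. Their median identity to a reference U1 was 72.7% of the longer sequence. The exception was Gm26244, identical to Rnu1a1 over 99.4% of its bases, which had a mean of only 3.18, or 19.4 per kb. The stretch that pairs with the intron start was present in Gm24036 and Gm26244, 2 of 8, against 26.1% of annotated U1-type genes.

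**Figure D3:**
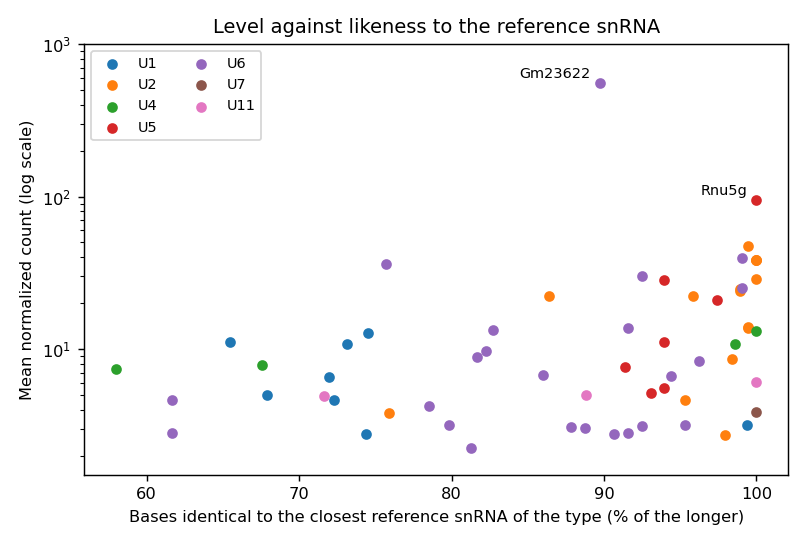
Mean normalized count (log axis) of each snRNA gene against its identical bases with the closest reference snRNA, as percent of the longer sequence, coloured by U type. Genes at 97.9% or more spread from 2.72 (Gm25360) to 94.4 (Rnu5g), and Gm23622 at 89.7% had the highest mean. References that are members, such as Rnu5g, were matched to themselves and stand at 100%.

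The genes closest to U11, a minor snRNA, and the histone snRNA gene Rnu7 were low. Rnu11 had 6.13 (45.8 per kb), Gm22472 had 5.01 and Gm24890, the lowest, had 4.90. Rnu7 had 3.84, or 62.0 per kb. Rnu12, the partner of U11, had no row in the table, and neither had any of the 6 annotated genes closest to it.

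The reference genes with no row included every named U1 and U6 gene that was used. The Rnu6 sequence is shared by 43 annotated genes, that of Rnu1a1 by 7, Rnu1b6 by 3, and Rnu1b1 and Rnu1b2 by 2 each, and none of these genes had a row. Rnu2-10, in contrast, has 4 genes of identical sequence, and all 4 had a row. In GENCODE M21, 1385 genes are annotated as snRNA and 4.40% of them had a row. By closest sequence, which is approximate for short or diverged copies, rows were present for 23 of 952 U6-type genes (2.42%), 8 of 207 U1-type genes (3.86%) and 15 of 46 U2-type genes (32.6%). An absent row was not read as absent expression, because how the table was filtered is not given in the sources used here.

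The part of each sequence that no other annotated snRNA gene holds was counted in stretches of 22 bases. None of the 23 U6-type members was without a stretch of its own, whereas 120 of 929 U6-type genes with no row (12.9%) were. For U1 these numbers were 0 of 8 and 16 of 199. For U2 they ran the other way, with 6 of 15 members and 0 of 31 genes with no row. The median share of own stretches was 41.6% in U6-type members and 70.1% in U6-type genes with no row, and 10% and 98.7% for U2. How reads that match several places were counted is not stated, and its part in these differences was not tested.

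Many snRNA genes lie inside another gene. Short RNA genes with a row (snRNA, miRNA, snoRNA, misc RNA and rRNA) were not counted as the other gene. Of the 61, 28 overlapped another annotated gene, and for 25 of them the other gene had a row too. In 25 of 25 the mean of the other gene was at least that of the snRNA gene. This held for 12 pairs on the same strand and for 13 pairs on opposite strands, and in 19 pairs the snRNA gene lay in an intron. The mean of the snRNA gene was 13.6% to 100% of the mean of the other gene, with a median of 53.2%, and it exceeded 90% in 8 pairs.

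Gm23622 lies in an intron of Erich6b, a protein-coding gene on the opposite strand, which had a mean of 560, so that the snRNA mean was 98.5% of it. Gm24311 had 30.0 and Ccz1, a gene of endosome transport on the opposite strand, had 30.9. Gm24268 had 13.4 and Magea2, on the opposite strand, had 14.7. On the same strand, Gm23849 had 38.2 inside Rdm1, a gene related to RAD52 of DNA repair, which had 40.3, and Gm24871 had 11.2 inside B930036N10Rik with 11.3. D230017M19Rik, a long noncoding RNA, holds the U2-type genes Gm24497, Gm23472 and Gm25939, whose means summed to 46.6 against its own 48.1. Rnu7 had 3.84 and Grcc10 had 4.15.

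Equal means occurred in a pair of such cases. Rnu11 and Gm28872, a long noncoding RNA on the opposite strand, both had 6.13. Gm26325, a U6-type gene, and Rnf225 on the same strand both had 3.04. Whether the counting used the strand is not stated, so reads of an snRNA gene and of the gene around it cannot be told apart, and the values of both genes are uncertain.

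**Figure D4:**
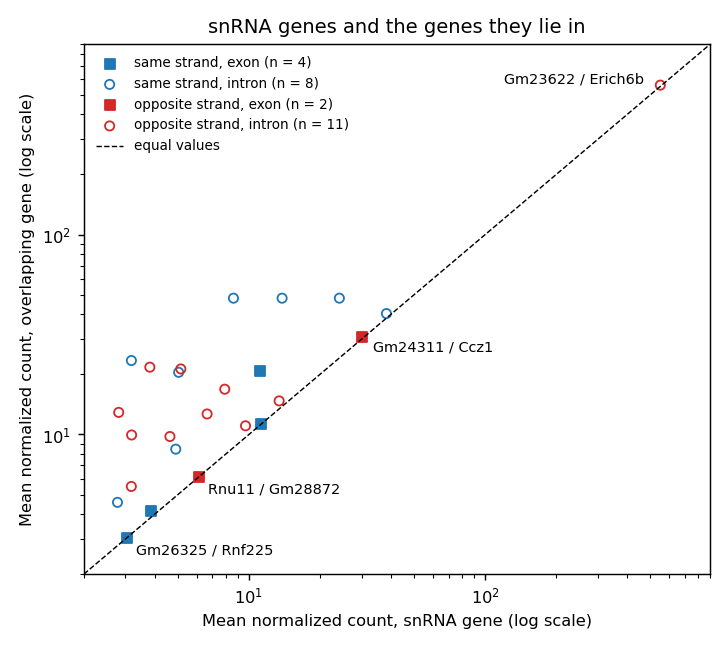
Mean normalized count of the gene around each snRNA gene against that of the snRNA gene itself (both axes log), for the 25 pairs with both rows. Colour gives the strand, filled squares lie in exons and open circles in introns. All 25 pairs lie on or above the dashed line of equal values.

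The members in such pairs held 55.4% of the class sum, with a median of 52.3 per kb. The 33 snRNA genes with no overlapping gene, short RNA genes with a row aside, had a median of 72.6 per kb. The highest was Gm23055 at 382 per kb. Rnu5g and Gm25313 lie in introns of Parp16, an ADP-ribosyltransferase gene on the opposite strand, which had no row.

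Few of the genes for the protein partners of snRNAs had a mean above 10. Of 73 genes on 9 lists of snRNP proteins and of factors for snRNA synthesis and assembly, 17 had a row (23.3%), against 38.1% of annotated protein-coding genes, and 4 of the 17 had a mean of at least 10 (23.5%), against 36.5% of protein-coding rows. These shares are a description, with no test. The libraries were of small RNA, so the means and absent rows were not read as levels of the mRNAs or proteins. Of the 4 genes, Snrpn (54.1) encodes an Sm protein of brain and heart and Sf3b3 (12.4) a protein of the U2 particle. The others were Sart3 (12.1), which rejoins U4 with U6, and Lsm3 (10.8) of the LSm ring. The U5 proteins had rows for 4 of 8 genes, up to 5.50 for Eftud2, a GTPase of the U5 particle. The U1 proteins had rows for 0 of 3. The lowest of all was Pdcd7 (1.57), a protein of the U11 particle.

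Of the cardiomyocyte markers, 9 of 12 had a row, among them Myh7 at 943 and Myh6 at 425, which each hold a cardiac miRNA gene in an intron. The next were Ttn at 82.9 and Ryr2 at 63.6. Lower means were those of Actc1, the median of the list, just above 10, and of Myl3 at 7.95. Tnnt2 had 4.82, Myl2 3.99 and Tnni1 2.59. Tnni3, Myl7 and Nppa had no row. Rows were also present for 4 of 4 endothelial, 4 of 5 fibroblast, 4 of 5 erythroid, 2 of 3 leukocyte and 3 of 3 neuron markers, with summed means of 27.2, 71.9, 15.2, 10.4 and 131, the last mainly from Syt1 (114), with Tubb3 at 10.9. The libraries were of small RNA, so these means were not read as levels of the marker mRNAs. The RNA was from whole hearts, so the cells from which the snRNA reads came cannot be told apart. Nor can fewer cells of a type be told from less RNA per cell.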

How the data were processed

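Libraries of small RNA were made from the hearts of 3 mice without ADAR2 and 3 wild-type siblings. According to the study's methods and the submitters' processing notes, adaptors were removed with cutadapt, reads were mapped with Bowtie (mm9) and genotypes were compared with DESeq. The methods also name NextGenMap, with a minimum identity, for mapping to mature microRNAs, and a P-value limit for the microRNAs considered. Versions, the annotation, the filter on the rows of the table, the strand setting and the counting of reads with several matches are not given in the sources used here. The deposited table is 1 table for the series. Its signal, the authors' mean normalized count over all samples, was the only column used. The other columns hold the authors' own comparison of the genotypes (fold changes, their standard error, a statistic and p-values) and were not used. The mean has no value per sample behind it in the table, so the depth and precision of each library were not assessed and no test was made.

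Identifiers were matched to GENCODE M21 (GRCm38), 10005 of 10065. Coordinates and sequences are those of that annotation and not of mm9. Levels per kb used the annotated transcript length. U types were assigned by global alignment (Biopython 1.88) to the reference with the highest percent of identical bases, at least 55%. The percent was taken of the longer sequence. Means within 1e-06 were counted as equal. Overlap was taken as any shared base between gene spans, leaving out other short RNA genes with a row.

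Named with values were all members with a mean of at least 10, the highest and lowest of each type, every Rnu gene and genes with equal means. Others were named after their values were seen. The members and lists were chosen with earlier results of these data known, and the Sm-site letters of each type after seeing the sequences. The sequences of some genes are not reported here.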

Additional observations from a re-analysis of the deposited data

How the results depend on the processing

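No paired analysis was possible because only 1 pooled mean per gene was used. Tests between genotypes, the fit with a replicate block, fits without each replicate in turn and other pseudocounts were therefore not run. How far depth limits the low means was not assessed. The cause of the following changes lies in which genes or scale entered each value.

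The share of snRNA genes in the sum of all means was 0.656%. It was 3.54% among all classes other than protein-coding, pseudogenes included. With equal means counted once it was 0.620%, without Gm23622 0.399% and per kb 6.03%. The median mean of 8.31 was 24.1 over members of at least 10 and 7.90 with equal means counted once. The 27 members of at least 10 became 42 at a threshold of 5, 17 at 20 and 1 at 100, and were 25 with equal means counted once.

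By annotated name, 89.9% of the class sum had no type told, U5 held 6.71%, U2 2.72%, U11 0.436%, U7 0.273%, and U1, U4 and U6 held 0. By closest sequence these became 0, 12.3%, 23.6%, 1.14%, 0.273%, 4.04%, 2.79% and 55.8%. With equal means counted once the named shares were 89.3%, 7.10% for U5, 2.87% for U2, 0.461% for U11 and 0.289% for U7, and per kb they were 90.2%, 7.10%, 1.74%, 0.399% and 0.541%.

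Chosen after seeing the data, the shares by sequence were recomputed without Gm23622 and without members that overlap another gene of the table. U6 then held 27.3% and 24.9%, U2 38.8% and 38.7%, U5 20.3% and 25.0%, U1 6.65% and 5.53%, and U4 4.60% and 4.996%. U2 came before U6 in both. Genes of identical sequence were each counted, among them the U2-type genes Rnu2-10 and Gm24950 at 38.2 each. Shares by sequence with equal means counted once were not computed, so the order of U2 and U6 is uncertain.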

Other observations

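Other short RNA genes of the table showed the same relation to the genes around them as the snRNA genes did. The mean of the surrounding gene was at least that of the miRNA gene in 102 of 103 pairs, 32 of which were on opposite strands, and at least that of the snoRNA gene in 32 of 32 pairs. The short gene made up a median of 51.8% of the surrounding gene's mean for miRNA genes and 42.1% for snoRNA genes, against 53.2% for snRNA genes.

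Of annotated snRNA genes whose sequence occurs in 2 or more genes, 6 of 96 (6.25%) had a row, and of those with a sequence of their own 55 of 1287 (4.27%) had one. The letters listed for a general Sm site were found in members about as often as in all annotated snRNA genes. AATTTNNGG was in 4 of 61 members (6.56%, against 5.78%), AATTTNNGA in 6 (9.84%, against 9.26%) and AATTTNTGG in 4 (6.56%, against 5.42%).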
